A study of Mus musculus with 9 samples.

Results

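Glioma stem cell genes are genes whose products mark or maintain the tumour-initiating cells of malignant brain tumours. The 10 examined here were taken by symbol from a table of 20778 genes: Sox2, Sox9, Klf4, Myc, Bmi1, Msi1, Nes, Cd44, Prom1 and Fut4. All 10 symbols were found, 9 passed the filter on low values (a minimum of 10 for the mean of all 9 libraries), and Prom1 did not pass. Bulk RNA sequencing of the mouse glioblastoma line GL261, labelled with mCherry, gave 3 libraries for each of 3 groups. The first group held tumours: 50000 cells were injected into the striatum of immunocompetent C57BL/6 male mice aged 7 weeks (n = 5 mice), and the brains were taken on day 14. In the second group GL261 cells grew on plastic dishes (2D culture) together with astrocytes, microglia, pericytes and endothelial cells taken from mice. The mixing ratio was 1:1:2:0.1:0.1, with GL261 at 1000000 cells per ml. The third group held the same mixture inside a fibrin gel (3D bioink). The labels state no other treatment or genotype. The primary cells came from the brains of C57BL/6 males aged 6 to 10 weeks. Microglia were taken by CD11b beads, endothelial cells by CD31 beads and pericytes by AN2 and CD144 beads, while the cells that remained served as astrocytes, a class defined by leftover rather than by a marker.

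Neural stem cells of the developing and adult brain depend on a small circuit of transcription factors, chromatin regulators and RNA-binding proteins that keeps them dividing without differentiating. Gliomas re-use much of that circuit, and cells with high levels of its members can seed a tumour again after transfer. None of the 10 genes belongs to tumour cells alone: astrocytes, endothelial cells, pericytes, fibroblasts and myeloid cells express several of them, so a bulk library adds up all sources.

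The promoters of 4 members are shown first. Klf4 and Sox2 were lower than tumours in 2D culture and higher in 3D bioink, while Bmi1 and Nes were highest in 2D culture. No promoter window was available for Sox9, Myc and Msi1. Each is the stretch of 250 bases before the RefSeq start on build GRCm38.p6, read 5′ to 3′ along the gene's strand. Klf4 lies at chr4:55532476-55532725 on the minus strand. The window of Sox2 is chr3:34649745-34649994, that of Bmi1 is chr2:18676768-18677017 and that of Nes is chr3:87970843-87971092, all on the plus strand. Capitals mark matches, on either strand, to a GC box (GGGCGG), an E-box (CACGTG) or a CCAAT box (CCAAT), and overlapping GC boxes run together.
Klf4: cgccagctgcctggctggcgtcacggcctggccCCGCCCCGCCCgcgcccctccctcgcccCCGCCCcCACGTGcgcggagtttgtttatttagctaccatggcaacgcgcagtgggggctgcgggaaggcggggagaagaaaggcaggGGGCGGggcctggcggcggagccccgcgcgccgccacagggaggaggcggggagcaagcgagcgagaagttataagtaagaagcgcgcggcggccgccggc
Sox2: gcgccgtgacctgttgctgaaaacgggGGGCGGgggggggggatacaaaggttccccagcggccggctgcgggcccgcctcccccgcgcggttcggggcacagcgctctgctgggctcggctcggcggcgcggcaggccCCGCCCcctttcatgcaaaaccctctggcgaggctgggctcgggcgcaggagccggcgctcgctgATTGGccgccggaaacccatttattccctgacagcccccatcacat
Bmi1: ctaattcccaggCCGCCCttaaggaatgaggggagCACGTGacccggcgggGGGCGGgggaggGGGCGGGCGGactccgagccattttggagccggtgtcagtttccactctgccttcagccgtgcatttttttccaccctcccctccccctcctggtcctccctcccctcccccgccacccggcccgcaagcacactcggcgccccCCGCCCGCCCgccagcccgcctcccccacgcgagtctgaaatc
Nes: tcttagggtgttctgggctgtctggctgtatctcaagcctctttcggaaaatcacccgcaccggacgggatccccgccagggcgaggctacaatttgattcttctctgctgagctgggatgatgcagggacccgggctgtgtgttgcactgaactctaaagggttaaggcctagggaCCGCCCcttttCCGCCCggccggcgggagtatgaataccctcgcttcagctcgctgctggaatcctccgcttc
GC boxes were present in all 4 windows: 4 matches in Klf4, 2 in Sox2, 6 in Bmi1 and 2 in Nes, against at least 1 match in 32.7% of 32851 promoter windows of the same length. Klf4 and Bmi1 each held 1 E-box, which 6.02% of all windows hold, and Sox2 held 1 CCAAT box, which 33.8% hold. None of the 4 held a TATA box (TATAAA, in 12.4% of windows), a cyclic AMP element (TGACGTCA, in 1.55%), an AP-1 site (TGANTCA, in 6.75%) or a CArG box (in 1.47%). The GC content was 74% in Klf4, 72% in Sox2, 70.4% in Bmi1 and 58.8% in Nes, and the median over all windows was 52.4%. The windows of other members differed: those of Cd44 and Fut4 held none of the 7 motifs. Prom1 has 2 windows, of which the first held 1 GC box, 1 CCAAT box and 1 AP-1 site and the second only 1 AP-1 site. Such matches describe the letters of the windows, and binding was not measured.

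Values are normalized read counts per gene that the authors deposited as whole numbers. Their totals ran from 16320090 to 16388074 in tumours, from 15572800 to 15711632 in 2D culture and from 13548461 to 13683978 in 3D bioink, and the number of reads behind each library was not given in the sources used here. The spacing of the low values put 1 read at about 1.54 units in replicate 1 of the 3D bioink, and at 1.09 to 1.2 units in the tumours, so fewer reads stood behind that library. That 3D library also took the lowest weight, 0.236, when limma weighted libraries by quality, against 0.688 to 4.96 for the others. Differences are log2 fold changes of value + 1 with their standard errors (SE), and a gene was called where the Benjamini-Hochberg adjusted p of limma, over the 13773 genes tested, was under 0.05. The labels do not say whether the 3 libraries of a group came from separate mice or cultures, so the p-values speak only of the scatter among the deposited libraries, which could be technical. The protocol speaks of loading the sequencer in triplicate. Libraries of a group were not copies of each other: for genes with a mean of 500 to 2000, the median squared difference between 2 libraries was 3.08 to 19.9 times that of counting noise, taking 1 unit as 1 read. With bulk RNA, fewer cells of a type and less RNA per cell cannot be told apart.

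Against tumours, 5 members were higher in 3D bioink (Sox2, Nes, Cd44, Klf4 and Sox9), 2 were lower (Myc and Fut4) and 2 were not called (Msi1 and Bmi1). Over all genes tested, 64.4% were called in that comparison, 27.1% higher and 37.3% lower. In 2D culture all 9 members tested were called against tumours, 4 higher (Nes, Cd44, Bmi1 and Sox9) and 5 lower (Sox2, Myc, Msi1, Klf4 and Fut4), where 54.3% of all genes were called, 27.3% higher and 27% lower. Between the cultures, 5 members were higher in 3D bioink than in 2D culture (Sox2, Cd44, Msi1, Klf4 and Sox9), 2 were lower (Nes and Bmi1) and 2 were not called (Myc and Fut4), beside 59.2% of all genes, 27% higher and 32.2% lower. With most of the table called in each comparison, a call in itself set no member apart, and Fut4 passed the filter through its tumour values alone, so its 2 falls are a description. Without replicate 1 of the 3D bioink, 7 members were called between 3D bioink and tumours (6 higher, with Msi1 gained, and 1 lower, with Myc lost), 9 between 2D culture and tumours and 7 between the cultures.

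**Figure D1:**
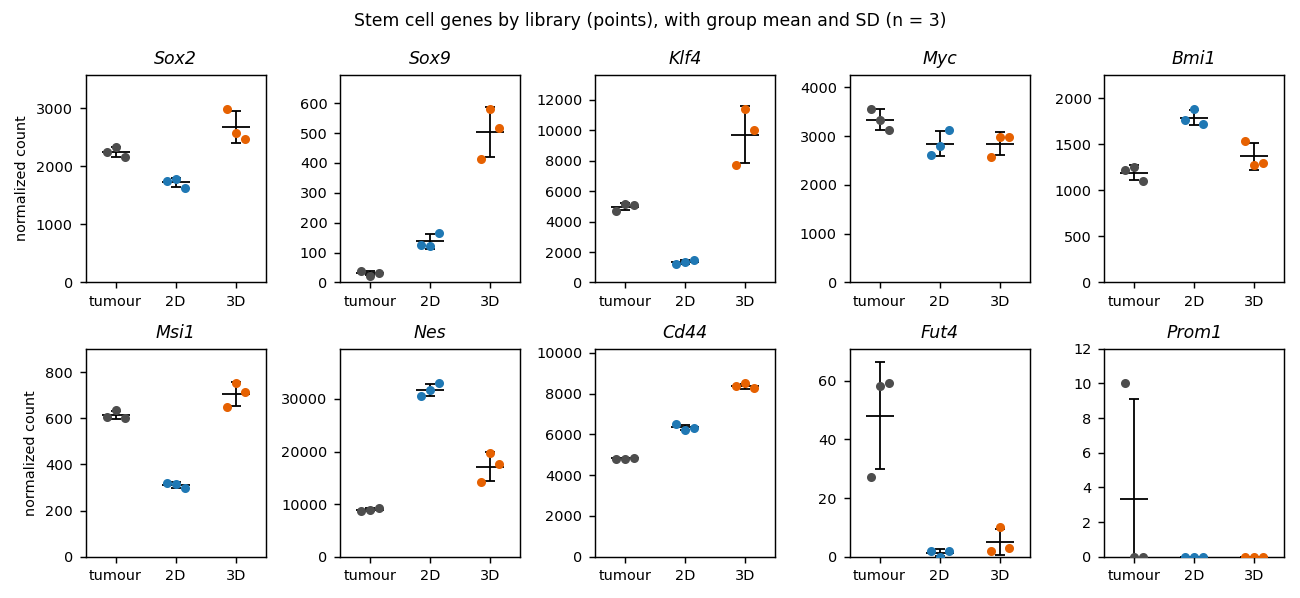
Deposited normalized value of each member in every library (linear axes from 0, in normalized counts), with tumours, 2D culture and 3D bioink side by side; points are libraries, and lines and bars give the mean and SD of 3 libraries. Myc and Fut4 overlap between the cultures, Prom1 sits at 0 in 8 of 9 libraries, and the other 7 members overlap between no groups.

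Among the transcription factors, Klf4 had the widest span between the cultures and moved in opposite directions against tumours. Klf4 (ENSMUSG00000003032.8, chr4:55527143-55532466, minus strand, GRCm38) encodes a zinc finger factor that takes part in reprogramming to pluripotency and is also an early response gene in endothelial and epithelial cells. Its values were 4715, 5145 and 5094 in tumours and 1214, 1339 and 1456 in 2D culture, while 3D bioink held 7727, 11380 and 10040. No 2 groups overlapped, and every 3D library lay above every tumour library while every 2D library lay below. Klf4 was 1.93-fold higher in 3D bioink than in tumours (log2 0.95, SE 0.13, adjusted p = 0.000107) and 3.74-fold lower in 2D culture (log2 -1.90, SE 0.13, adjusted p = 9.03e-07). Between the cultures the difference was 7.19-fold (log2 2.85, SE 0.13, adjusted p = 1.01e-07), the largest among the members. Immediate early genes, which respond to stimulation within minutes, also differed: of 18 tested, 15 were lower and none higher in 3D bioink than in tumours, and 18 were lower in 2D culture. Between the cultures 17 were higher and 1 lower (Srf, log2 -0.34) in 3D bioink, and under 3 other scalings Srf lay between -0.17 and -0.15 and lost its call. Their summed values were 184135 to 190582 in tumours, 17876 to 19562 in 2D culture and 83347 to 88398 in 3D bioink, so that their order over the groups differed from that of Klf4. Only the 3D bioink was digested with collagenase II (600 U/ml for 3 h) and passed through a 70 µm mesh before RNA was taken, and this step and the gel cannot be told apart.

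Other Krüppel-like factors were taken as a list of 12 genes, all tested. Of these, 9 were higher and 1 lower in 3D bioink than in tumours (median log2 0.63, against -0.11 over all genes tested). In 2D culture 2 were higher and 5 lower than in tumours (median -0.06, against 0.01). Between the cultures 8 were higher and 1 lower (Klf16) in 3D bioink than in 2D culture (median 1.54, against -0.02). Klf12, called higher in 3D bioink than in tumours, owed its pass of the filter mostly to 3D bioink. Its means were 3.67 in tumours, 10 in 2D culture and 33.3 in 3D bioink, so that rise is a description. Klf6, an early response factor, stood at 3919, 4103 and 4024 in tumours and 1033, 1045 and 984 in 2D culture, and the 3D bioink libraries had 6761, 6171 and 6568, the same order as Klf4. Klf2, a factor induced by flow in endothelial cells, was 7.15-fold lower in 2D culture than in tumours (log2 -2.84, adjusted p = 2.37e-08) and 1.30-fold higher in 3D bioink (log2 0.38, adjusted p = 0.0133). Klf9, which glucocorticoids induce, was 428, 513 and 426 in tumours and 2795, 2166 and 2356 in 3D bioink, a difference of 5.33-fold (log2 2.41, SE 0.14, adjusted p = 3.58e-07). It was not called between 2D culture and tumours (log2 -0.15). Klf11 was near the tumour level in 3D bioink (log2 -0.09, not called) and 8.02-fold lower in 2D culture (log2 -3.00, adjusted p = 8.52e-08). The 1 gene lower in 3D bioink than in tumours, Klf16 (log2 -0.26), lost its call and lay between -0.10 and 0.01 when the libraries were scaled in 3 other ways.

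Sox2 (ENSMUSG00000074637.7, chr3:34650405-34652461, plus strand) encodes an HMG-box factor that maintains neural stem cells. It stood at 2250, 2331 and 2169 in tumours and 1752, 1781 and 1633 in 2D culture, against 2984, 2574 and 2476 in 3D bioink. Its order over the groups matched that of Klf4, with no overlap, but the span was much smaller. Sox2 was 1.55-fold higher in 3D bioink than in 2D culture (log2 0.63, SE 0.08, adjusted p = 5.73e-05) and lower in 2D culture than in tumours (log2 -0.39, SE 0.08, adjusted p = 0.00163). Against tumours the rise in 3D bioink was 1.19-fold (log2 0.25, SE 0.08, adjusted p = 0.0159). That call was lost without tumour replicate 3 (log2 0.22, adjusted p = 0.0531), and its size fell to log2 0.15 (adjusted p = 0.0373) with weights on the libraries. It was larger under the 3 other scalings, at log2 0.43 to 0.51. The gene lies within the noncoding gene Sox2ot on the same strand, which was not analysed here, and reads from the 2 cannot be told apart by strand. Msi1 and Cd44 overlap genes on the opposite strand, and whether the counting used strand is not given in the sources used here.

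Sox9 (ENSMUSG00000000567.5, chr11:112782224-112787760, plus strand), an HMG-box factor of glial specification, astrocytes and cartilage, showed the largest rise of the members against tumours. Tumours held 38, 23 and 33, 2D culture 125, 121 and 166, and 3D bioink 413, 580 and 516. The 3 groups were stepped without overlap, tumours lowest and 3D bioink highest. Sox9 was 15.8-fold higher in 3D bioink than in tumours (log2 3.98, SE 0.24, adjusted p = 4.50e-07). It was 4.32-fold higher in 2D culture than in tumours (log2 2.11, SE 0.24, adjusted p = 4.03e-05) and 3.65-fold higher in 3D bioink than in 2D culture (log2 1.87, SE 0.24, adjusted p = 9.41e-05). Astrocytes and fibroblasts also express this gene. The summed values of 12 astrocyte markers were 7655 to 8261 in tumours, 7592 to 8051 in 2D culture and 9710 to 9937 in 3D bioink, with Gjb6 at 0 in 2D culture. Those of 12 fibroblast and meningeal markers were 14321 to 14995, 12479 to 13047 and 23693 to 25207 in the same order, with Dpt at 0 in tumours. Of 10 fibroblast and meningeal markers tested, 6 were higher and 2 lower in 3D bioink than in tumours, and 4 were higher and 4 lower in 2D culture. Between the cultures 9 of them were higher and none lower in 3D bioink. The part of astrocytes or fibroblasts in the Sox9 values was not tested. The astrocyte markers moved in both directions: of 11 tested, 5 were higher and 3 lower in 3D bioink than in tumours, and 4 were higher and 4 lower in 2D culture. In 2D culture Slc1a3, Atp1b2, Gfap and Slc1a2 were lower (log2 -2.94, -2.79, -1.83 and -1.52) and Gja1, Aldoc, S100b and Fgfr3 were higher (log2 0.42, 0.39, 0.56 and 1.26). Between the cultures 6 were higher and none lower in 3D bioink. The water channel Aqp4, which defines astrocytes, had low values throughout, from 7 to 11 in tumours, 7 to 14 in 2D culture and 9 to 15 in 3D bioink.

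The other SOX factors formed a list of 15 genes, of which 11 were tested. In 3D bioink 4 were higher and 3 lower than in tumours (median log2 0.23). In 2D culture none was higher and 7 were lower than in tumours (median -0.71), and 3D bioink exceeded 2D culture in 5 and fell short in 2 (median 0.99). That split became 8 and 2 with equal upper quartiles and 9 and 2 with equal totals. Sox18 (means of 7.33 in tumours, 0 in 2D culture and 28.7 in 3D bioink) passed the filter only through 3D bioink. Its place in these counts is a description. Sox4, a progenitor factor, followed the order of Sox2 with 5633, 5997 and 5751 in tumours and 3670, 3782 and 3869 in 2D culture, while 3D bioink held 8165, 10037 and 9327. Sox10, the factor that defines oligodendrocyte lineage cells, took the reverse course to Sox9. It was 2.13-fold lower in 3D bioink than in tumours (log2 -1.09, SE 0.11, adjusted p = 1.54e-05) and 1.36-fold lower in 2D culture (log2 -0.44, SE 0.11, adjusted p = 0.00708). Sox11, a factor of immature neurons and progenitors, held 110, 142 and 134 in tumours and 27, 25 and 23 in 2D culture, and the 3D bioink libraries had 42, 33 and 32, below tumours in all 6 culture libraries.

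**Figure D2:**
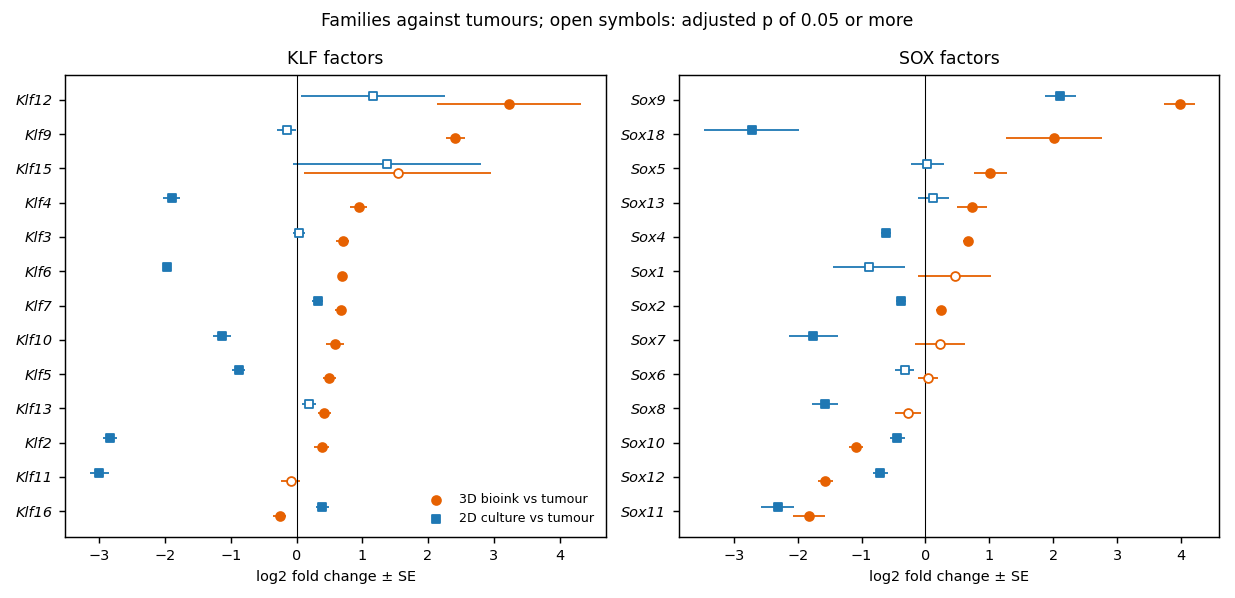
Log2 fold change against tumours of the Krüppel-like factors (left) and the SOX factors (right) in 3D bioink (circles) and 2D culture (squares), with bars of 1 standard error; open symbols had an adjusted p of 0.05 or more. Klf4, Klf2, Klf5, Klf6 and Klf10 lie right of 0 in 3D bioink and left of it in 2D culture, as do Sox2 and Sox4, and Sox9 lies farthest right among the SOX factors in both cultures.

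Myc (ENSMUSG00000022346.15, chr15:61985391-61990374, plus strand) encodes the basic helix-loop-helix factor that drives growth, ribosome production and division. Its values were 3551, 3323 and 3133 in tumours and 2606, 2799 and 3116 in 2D culture, against 2571, 2986 and 2982 in 3D bioink. Every culture library lay below every tumour library, by a narrow margin, and the cultures overlapped. The differences from tumours were log2 -0.23 (SE 0.09, adjusted p = 0.0374) in 3D bioink and log2 -0.23 (SE 0.09, adjusted p = 0.0414) in 2D culture. Between the cultures the difference was log2 0.0035 (SE 0.09, adjusted p = 0.978). Both calls against tumours were lost under each of 3 other scalings, where the 3D value lay between log2 -0.05 and 0.03, and the 2D value between -0.22 and -0.17. Both were also lost without tumour replicate 1 or 2 (adjusted p from 0.0778 to 0.134). The 3D call was lost without 3D bioink replicate 1 (adjusted p = 0.11) or 2D culture replicate 2 (adjusted p = 0.0541), and the 2D call without 2D culture replicate 1 or 2 or 3D bioink replicate 3 (adjusted p = 0.15, 0.103 and 0.0511).

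Genes known as MYC targets did not take the course of Myc. Of 20, 16 were higher and none lower in 2D culture than in tumours (median log2 0.49), and 7 were higher and 11 lower in 3D bioink than in tumours (median -0.39). Between the cultures 1 was higher (Ncl) and 15 were lower in 3D bioink (median -1.05; 3 and 14 with quantile scaling), while Myc did not differ beyond its spread. Srm, the spermidine synthase gene, had values of 2251, 2361 and 2385 in tumours and 3062, 2887 and 3123 in 2D culture, while 3D bioink held 903, 837 and 826. Between the cultures it was 3.53-fold lower in 3D bioink (log2 -1.82, SE 0.06, adjusted p = 1.73e-08). Npm1, a nucleolar chaperone gene, was 1.99-fold higher in 2D culture than in tumours (log2 1.00, SE 0.06, adjusted p = 3.52e-07) and 1.22-fold higher in 3D bioink (log2 0.28, adjusted p = 0.00172). Of 10 tested genes for partners and antagonists of MYC, 1 was higher (Mxd3) and 7 were lower in 2D culture than in tumours. Of the same 10, 2 were higher and 3 lower in 3D bioink than in tumours (4 and 2 with equal totals), and 6 were higher and 3 lower in 3D bioink than in 2D culture. Max, the obligate dimer partner, was 1.53-fold lower in 2D culture (log2 -0.61, adjusted p = 0.000626) and 2.08-fold lower in 3D bioink (log2 -1.05, adjusted p = 1.19e-05). Mxd1, an antagonist that competes for MAX, was 10.1-fold lower in 2D culture than in tumours (log2 -3.33, SE 0.11, adjusted p = 7.71e-09) and 2.37-fold lower in 3D bioink (log2 -1.24, SE 0.11, adjusted p = 6.50e-06).

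Proliferation genes were taken as a separate list of 20, because several members mark dividing cells. In 2D culture 17 were higher and none lower than in tumours (median log2 1.15), and 18 were lower and none higher in 3D bioink than in 2D culture (median -1.37). Against tumours 6 were higher and 8 lower in 3D bioink, a split that became 10 and 6 when libraries were scaled to equal totals. Their summed values were 20139 to 20819 in tumours, 42795 to 43927 in 2D culture and 18786 to 19651 in 3D bioink. Rrm2, a ribonucleotide reductase subunit, was 3.90-fold lower in 3D bioink than in 2D culture (log2 -1.96, SE 0.09, adjusted p = 9.18e-08), while Mki67 was not called in any of the 3 comparisons.

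**Figure D3:**
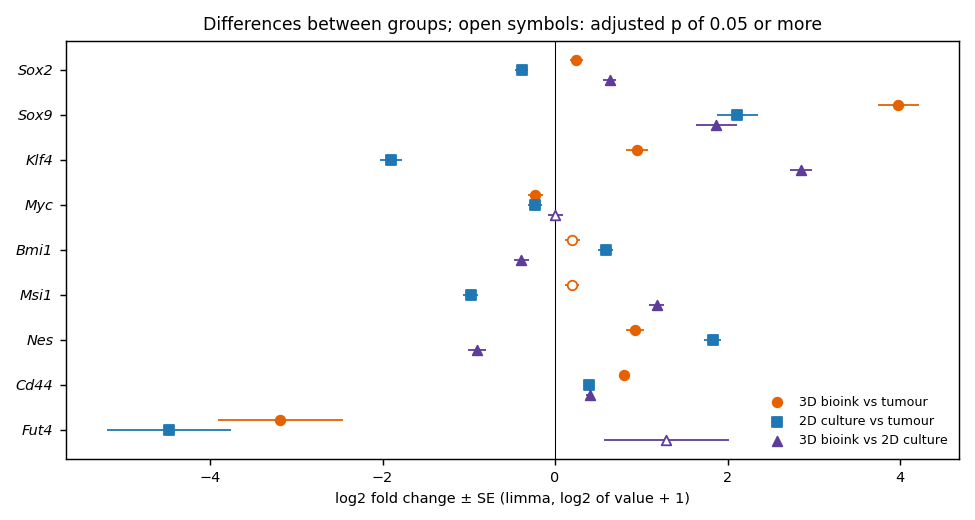
Log2 fold change of each tested member in the 3 comparisons, with bars of 1 standard error; open symbols had an adjusted p of 0.05 or more. Klf4 and Sox2 lie on opposite sides of 0 in the 2 cultures against tumours, Sox9 lies far to the right in all 3 comparisons, and Fut4 lies far to the left of 0 against tumours with the widest bars.

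The chromatin regulator and the RNA-binding protein of the set were highest in different cultures. Bmi1 (ENSMUSG00000026739.13, chr2:18677018-18686629, plus strand) encodes a ring finger subunit of polycomb repressive complex 1 that keeps the Cdkn2a locus silent in stem cells. It stood at 1218, 1255 and 1102 in tumours and 1766, 1881 and 1721 in 2D culture, and the 3D bioink libraries had 1540, 1272 and 1297. The 2D libraries were above all others, and the lowest 3D library was only slightly above the highest tumour library. Bmi1 was 1.50-fold higher in 2D culture than in tumours (log2 0.59, SE 0.09, adjusted p = 0.000257) and lower in 3D bioink than in 2D culture (log2 -0.39, SE 0.09, adjusted p = 0.00325). Under 3 other scalings the call between the cultures was lost (log2 -0.22 to -0.19). The difference of 3D bioink from tumours, log2 0.20 (SE 0.09, adjusted p = 0.0692), was called under those scalings (log2 0.37 to 0.46) and without 3D bioink replicate 2 (log2 0.25, adjusted p = 0.045).

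Among 19 other polycomb genes, all tested, 6 were higher and 5 lower in 3D bioink than in tumours, and 6 were higher and 7 lower in 2D culture than in tumours. Between the cultures 4 were higher and 6 lower in 3D bioink than in 2D culture. The last split became 8 higher and 3 lower with libraries scaled to equal totals. Ezh2, the methyltransferase of polycomb repressive complex 2, had values of 1052, 1138 and 1273 in tumours and 2497, 2619 and 2717 in 2D culture, against 1810, 2533 and 2217 in 3D bioink, so both cultures were above tumours. Suz12, a core subunit of the same complex, was 2.25-fold higher in 3D bioink (log2 1.17, adjusted p = 2.00e-06) and 2.18-fold higher in 2D culture than in tumours (log2 1.12, adjusted p = 2.94e-06). Cdkn2a, the classical target of Bmi1, held 1409, 1530 and 1455 in tumours and 1761, 1532 and 1413 in 2D culture, while 3D bioink held 826, 885 and 790. It was 1.76-fold lower in 3D bioink than in tumours (log2 -0.81, SE 0.09, adjusted p = 2.30e-05) and was not called between 2D culture and tumours (log2 0.09), where Bmi1 was higher. Of 5 cell cycle inhibitors that polycomb complexes repress, Cdkn2a among them, 2 were lower and none higher in 3D bioink than in tumours, and 2 were lower and none higher in 3D bioink than in 2D culture (2 and 1 under each of 3 other scalings). Against tumours 1 was higher (Cdkn2c) and 2 were lower (Cdkn1a and Cdkn2b) in 2D culture. The call of Cdkn2b (log2 -0.48, adjusted p = 0.0441) was lost in 6 of the 9 fits that left out 1 library, and its adjusted p reached 0.13 under the other scalings. Cdkn1a, the other gene called lower in 3D bioink than in tumours (log2 -0.22), lay between -0.03 and 0.04 under 3 other scalings.

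Msi1 (ENSMUSG00000054256.11, chr5:115429599-115455698, plus strand) encodes Musashi 1, an RNA-binding protein of neural precursors that represses translation of Numb. Its values were 606, 634 and 602 in tumours and 319, 316 and 298 in 2D culture, and the 3D bioink libraries had 650, 751 and 715. The 2D libraries lay far below both other groups, and the 3D libraries lay just above the tumours. Msi1 was 1.97-fold lower in 2D culture than in tumours (log2 -0.98, SE 0.08, adjusted p = 6.05e-06) and 2.26-fold higher in 3D bioink than in 2D culture (log2 1.18, SE 0.08, adjusted p = 1.92e-06). The difference of 3D bioink from tumours was log2 0.20 (SE 0.08, adjusted p = 0.0651), and it was called under 3 other scalings (log2 0.37 to 0.46), with weights on the libraries (log2 0.22) and without 3D bioink replicate 1 (log2 0.26, adjusted p = 0.022). The paralogue Msi2 took a different course. It was not called between 2D culture and tumours (log2 0.21, adjusted p = 0.0693) and was 1.65-fold higher in 3D bioink than in tumours (log2 0.72, SE 0.09, adjusted p = 5.16e-05). Numb, the textbook Musashi target, was lower in 2D culture than in tumours (log2 -0.61, SE 0.09, adjusted p = 0.000177), the same direction as Msi1. Of the 4 tested partners and targets of Musashi proteins, 3 were higher and none lower in 3D bioink than in tumours, and 2 were higher and 1 lower (Numb) in 2D culture. Between the cultures 2 were higher and 1 lower (Elavl1) in 3D bioink.

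Nes (ENSMUSG00000004891.16, chr3:87971078-87980451, plus strand) encodes nestin, the intermediate filament of neural stem cells, which is also made by newly formed vessels and reactive glia. It stood at 8749, 8836 and 9277 in tumours and 30601, 31724 and 32926 in 2D culture, against 14131, 19765 and 17558 in 3D bioink. The groups did not overlap, and 3D bioink took the middle place. Nes was 3.55-fold higher in 2D culture than in tumours (log2 1.83, SE 0.10, adjusted p = 2.75e-07). It was 1.90-fold higher in 3D bioink than in tumours (log2 0.92, SE 0.10, adjusted p = 2.91e-05) and lower in 3D bioink than in 2D culture (log2 -0.90, SE 0.10, adjusted p = 4.16e-05), a difference that was log2 -0.73 to -0.60 under 3 other scalings. The 2D libraries were also those with the highest summed proliferation values given above, and the part of dividing cells in the Nes values was not tested.

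Other intermediate filaments did not share a direction. Synm, a filament protein that pairs with nestin and vimentin, was 102, 104 and 151 in tumours and 1228, 1268 and 1299 in 2D culture, while 3D bioink held 627, 777 and 861, the order of Nes. It was 10.7-fold higher in 2D culture (log2 3.42, SE 0.16, adjusted p = 9.81e-08) and 6.35-fold higher in 3D bioink than in tumours (log2 2.67, SE 0.16, adjusted p = 5.49e-07). Vim, the vimentin gene, was 1.54-fold higher in 2D culture than in tumours (log2 0.62, SE 0.05, adjusted p = 4.23e-06) and not called in 3D bioink (log2 0.06), though it was called higher there under each of 3 other scalings. Gfap, the filament of mature and reactive astrocytes, went the other way from Nes, with 625, 553 and 603 in tumours and 163, 187 and 149 in 2D culture, and the 3D bioink libraries had 367, 362 and 395. Prph, the peripherin gene, was lower than in tumours in both cultures (log2 -2.11 in 3D bioink and -1.50 in 2D culture). Of the 5 filament genes tested, 1 was higher and 2 were lower in 3D bioink than in tumours (2 and 2 under each other scaling). In 2D culture 2 were higher and 3 lower than in tumours, and 3D bioink exceeded 2D culture in 2 and fell short in 3.

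Cd44 (ENSMUSG00000005087.17, chr2:102811141-102901665, minus strand) encodes the cell surface receptor for hyaluronan and osteopontin, a marker of mesenchymal glioma cells that fibroblasts and leukocytes also carry. Its libraries lay close together within each group, with 4813, 4792 and 4860 in tumours and 6490, 6232 and 6313 in 2D culture, against 8357, 8498 and 8255 in 3D bioink. The groups rose in steps without overlap, tumours lowest and 3D bioink highest. Cd44 was 1.74-fold higher in 3D bioink than in tumours (log2 0.80, SE 0.04, adjusted p = 1.36e-07). It was 1.32-fold higher in 2D culture than in tumours (log2 0.40, SE 0.04, adjusted p = 1.68e-05) and higher in 3D bioink than in 2D culture (log2 0.40, SE 0.04, adjusted p = 1.63e-05). Under 3 other scalings the calls were kept, but the difference from tumours in 3D bioink was log2 0.98 to 1.19 and that between the cultures 0.57 to 0.76. The sums of fibroblast and meningeal markers given with Sox9 were likewise highest in 3D bioink, though 2 of the 10 tested were lower there than in tumours. The part of such cells in the Cd44 values was not tested.

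Of 10 genes for ligands and linkers of CD44, 7 were higher and 3 lower in 3D bioink than in tumours (median log2 1.08), and 7 were higher and 1 lower in 2D culture than in tumours (median 0.58). The first split became 7 and 1 under each of 3 other scalings. Between the cultures 5 were higher and 3 lower in 3D bioink than in 2D culture (median 0.49), or 7 higher and 1 lower with quantile scaling. Spp1, which encodes osteopontin, held 1098, 1074 and 1109 in tumours and 2127, 2220 and 2171 in 2D culture, while 3D bioink held 23703, 25751 and 26429. That was 23.1-fold higher in 3D bioink than in tumours (log2 4.53, SE 0.05, adjusted p = 2.46e-11) and 1.99-fold higher in 2D culture than in tumours (log2 0.99, SE 0.05, adjusted p = 1.70e-07). Has2, a hyaluronan synthase gene, was 4.20-fold higher in 3D bioink (log2 2.07, SE 0.08, adjusted p = 3.50e-08) and 1.52-fold higher in 2D culture than in tumours (log2 0.60, SE 0.08, adjusted p = 0.000159). The gene with the largest fall in both cultures was Cd74, the invariant chain of antigen-presenting cells, with 66127, 65850 and 60832 in tumours and 4, 8 and 3 in 2D culture, and the 3D bioink libraries had 29, 41 and 26. Msn, the moesin gene, was lower in 3D bioink than in tumours (log2 -0.36), with a range of -0.17 to 0.08 under 3 other scalings.

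Prom1 (ENSMUSG00000029086.15, chr5:43993620-44102032, minus strand) encodes prominin 1, or CD133, a membrane protein widely used to isolate human glioma stem cells. It was listed at 10 in tumour replicate 1 and at 0 in the other 8 libraries, so it was not tested and no fold change is given. Since the reads behind a value of 0 are not given, no upper limit on its level was worked out. Of the 12 other surface markers of glioma stem cells tested, 5 were higher and 3 lower in 3D bioink than in tumours, and 6 were higher and 3 lower in 2D culture. Between the cultures 5 were higher and 3 lower in 3D bioink. With equal totals the first and the last split were each 6 and 2. Itga6, the integrin alpha 6 gene, was 1634, 1838 and 1793 in tumours and 5458, 5402 and 5342 in 2D culture, against 4392, 4764 and 4893 in 3D bioink, well above tumours in both cultures. Kit, a receptor tyrosine kinase gene, held 799, 749 and 828 in tumours and 29, 17 and 31 in 2D culture, while 3D bioink held 743, 676 and 757. It was 30.6-fold lower in 2D culture than in tumours (log2 -4.94, SE 0.20, adjusted p = 3.25e-08) and was not called in 3D bioink (log2 -0.13, SE 0.20, adjusted p = 0.603). Cxcr4, a chemokine receptor gene of glioma cells and leukocytes, held 444, 436 and 384 in tumours and 0, 3 and 0 in 2D culture, and the 3D bioink libraries had 0, 4 and 7. Cxcr4 passed the filter through its tumour values alone, so its falls are a description.

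Fut4 (ENSMUSG00000049307.6, chr9:14748320-14752393, minus strand) encodes a fucosyltransferase that makes the Lewis X sugar known as SSEA-1 or CD15. Its values were low, at 27, 58 and 59 in tumours and 2, 0 and 2 in 2D culture, against 2, 10 and 3 in 3D bioink. Every culture library was below every tumour library, and the cultures overlapped. On the log2 scale of value + 1, the difference of Fut4 from tumours was -3.18 (SE 0.72) in 3D bioink and -4.48 (SE 0.72) in 2D culture. These sizes are a description, because the gene passed the filter only through the tumours. The cultures did not differ beyond their spread (log2 1.29, SE 0.72, adjusted p = 0.151). The sizes depended on the pseudocount: with 10 added in place of 1 they were -1.93 and -2.30. Myeloid cells also express Fut4. The summed values of 12 macrophage and monocyte markers were 33108 to 33877 in tumours, 3656 to 4656 in 2D culture and 7994 to 9466 in 3D bioink, with Ly6c2 at 0 in both cultures and F13a1 at 0 in 2D culture. Most of the sums in the cultures came from Fn1, Vcan and Itga4, which other cells also express, with means of 4479, 2219 and 1646 in 3D bioink and 1400, 1320 and 1272 in 2D culture. Of 11 tested, 1 was higher (Vcan) and 8 were lower in 3D bioink than in tumours, and 1 was higher and 10 were lower in 2D culture. Ly6c2 and F13a1 could only fall in a culture where they stood at 0, so those falls are a description. Without genes at 0 in a compared group, the median log2 against tumours went from -3.36 to -2.79 in 3D bioink. In 2D culture it went from -5.35 to -1.98. Lyz2, the lysozyme gene of myeloid cells, was 117-fold lower in 3D bioink, and Ms4a7 was 23.6-fold lower. The part of these cells in the Fut4 values was not tested. Fut9, the brain enzyme that makes the same sugar, stayed under the filter, so it was not tested. Of the 5 tested fucosyltransferase genes, 2 were lower and none higher in 3D bioink than in tumours, and 2 were higher and none lower in 2D culture than in tumours. With equal totals none was called in 3D bioink against tumours, and with equal totals or equal upper quartiles 4 were higher in 2D culture. Between the cultures 1 was higher (Fut11) and 3 were lower in 3D bioink. The calls of Fut8 in 2D culture, of Pofut1 in 3D bioink against tumours and of Fut11 were lost in 8, 7 and 6 of the 9 fits that left out 1 library, and Pofut1 (log2 -0.24) lay between -0.06 and 0.02 under 3 other scalings.

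Levels of different members were compared only per kilobase of merged exons. On that scale, mean level in tumours ran from Klf4 (1635 per kb) through Nes (1396), Myc (1228), Sox2 (1094), Cd44 (711.6), Bmi1 (299.9) and Msi1 (105.9) to Fut4 (11.8) and Sox9 (7.58), and only the last 2 overlapped between neighbours. In 2D culture the level per kb of Nes (4949) was the highest, and Klf4 (438.3) fell to the range of Bmi1 (450.3), with which it overlapped. In 3D bioink Klf4 (3187 per kb) and Nes (2673 per kb) came first and overlapped. Sox2 (1302 per kb) and Cd44 (1235 per kb) overlapped behind them, and Sox9 (121.6 per kb) reached the level of Msi1 (121.6 per kb). By level per kb, Sox9 thus stood with Fut4 at the low end in tumours, above Fut4 in 2D culture and beside Msi1 in 3D bioink.

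**Figure D4:**
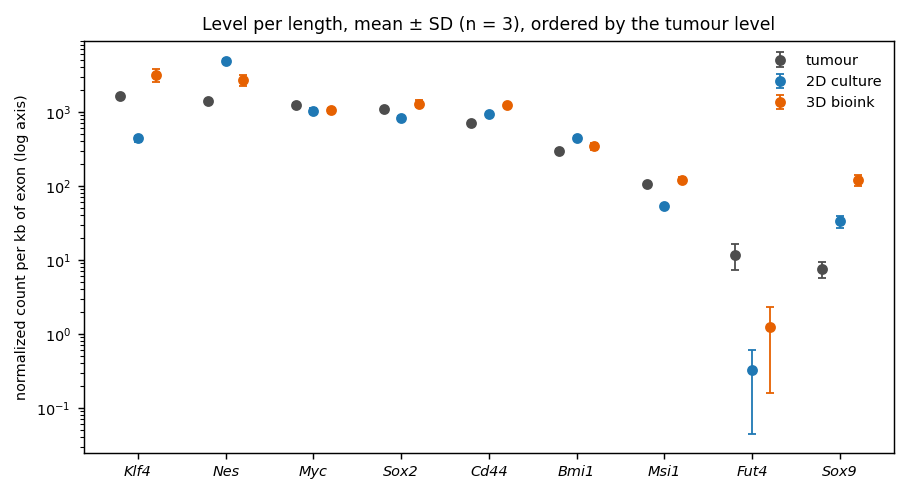
Mean level per kilobase of merged exons (log10 axis) of each member in tumours, 2D culture and 3D bioink, with bars of 1 SD over 3 libraries and without Prom1. Sox9 climbs from 7.58 in tumours to 121.6 per kb in 3D bioink, while Klf4 drops to 438.3 per kb in 2D culture only.

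Non-overlap between groups was seen for 9 of the 9 tested members between 3D bioink and tumours, where 67.6% of all genes tested did not overlap, for 9 of 9 between 2D culture and tumours (63.9% of all genes), and for 7 of 9 between the cultures (67.1% of all genes). By the size of the log2 difference, 3D bioink was nearer to tumours than 2D culture for 7 of 9 members, beside 43.9% of all genes tested, and 2D culture was nearer for Cd44 and Sox9. Under each of 3 other scalings 2D culture was nearer for Sox2 as well, which left 6. The share of all genes under those scalings is not given here. For Myc the distances were nearly equal, at 0.2304 and 0.2339. For Fut4, counted as nearer in 3D bioink, the cultures overlapped at low values and were not called apart (limma, adjusted p = 0.151). Fut4 also passed the filter through its tumour values alone, so its non-overlap with tumours is a description. Both comparisons used the same tumour libraries, and the order is a description with no test of its own.

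The genes whose course over the 9 libraries was most like each member's were found by the root mean square distance between log2 profiles centred on their mean, among 10181 genes with a mean of at least 100. Sox2 was followed closest by Rab5a (distance 0.0401), Cd44 by Megf10 (0.0451), Myc by Crebzf (0.058), Bmi1 by Pcmt1 (0.0644), Msi1 by Fmn2 (0.0774) and Nes by Chsy3 (0.0988). Members with wide spans had more distant neighbours: Klf4 had Slc2a1 (0.185) and Axin2 (0.192), Sox9 had Fbln1 (0.206) and Sema5a (0.283), and Fut4 had Jak3 (0.497). Among the members themselves the closest pair was Sox2 and Msi1 (0.292) and the farthest was Fut4 and Sox9 (3.32). All profiles came from the same 9 libraries.

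The wider set of neural and glioma stem cell factors moved in both directions. Of 18 tested, 6 were higher and 8 lower in 3D bioink than in tumours (9 and 6 when libraries were scaled to equal totals), and 4 were higher and 8 lower in 2D culture than in tumours. Between the cultures 12 were higher and 4 lower in 3D bioink than in 2D culture (median log2 0.88). Id1, an inhibitor of differentiation, shared the order of Sox9 with 160, 236 and 213 in tumours and 518, 555 and 580 in 2D culture, while 3D bioink held 1212, 1248 and 1531. Hes1, a Notch effector, was 2.57-fold higher in 3D bioink than in tumours (log2 1.36, SE 0.20, adjusted p = 0.000176) and not called in 2D culture (log2 -0.01). Olig2, a factor of oligodendrocyte precursors and proneural glioma, was 3.76-fold lower in 3D bioink (log2 -1.91, SE 0.08, adjusted p = 4.29e-08) and 3.08-fold lower in 2D culture than in tumours (log2 -1.62, SE 0.08, adjusted p = 1.02e-07). Fabp7, a radial glia gene, was 7.98-fold lower in 3D bioink (log2 -3.00, SE 0.37, adjusted p = 6.68e-05) and 18.0-fold lower in 2D culture than in tumours (log2 -4.17, SE 0.37, adjusted p = 7.74e-06). Of the 4 tested pluripotency factors, 1 was higher (Tfcp2l1) and 1 lower (Dppa4) in 3D bioink than in tumours, and none was higher and 1 lower (Tbx3) in 2D culture. Between the cultures 2 were higher and 1 lower (Dppa4) in 3D bioink. Nanog was not called in any comparison.

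**Figure D5:**
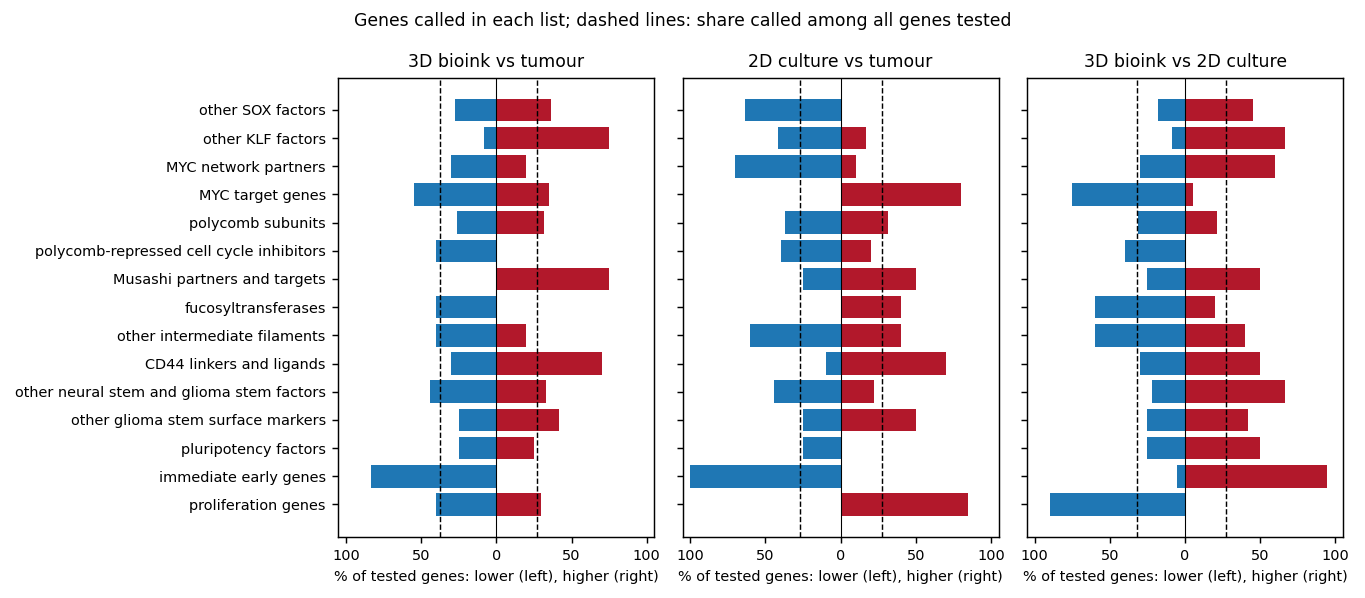
Genes called higher (right) and lower (left) in each gene list, as a share of those tested, in the 3 comparisons; the dashed lines give the share of all genes tested. MYC targets and proliferation genes were mostly higher in 2D culture than in tumours and mostly lower in 3D bioink than in 2D culture.

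The cell types named by the labels differed in their markers between the groups, and the part of these differences in the members' values was not tested. Summed microglia markers were 21261 to 22131 in tumours, 936 to 1048 in 2D culture and 1562 to 1657 in 3D bioink. Aif1, which defines microglia and macrophages, was 966, 1185 and 1013 in tumours and 0, 0 and 4 in 2D culture, and the 3D bioink libraries had 0, 2 and 1, so the labelled microglia were at or near 0 by this marker in both cultures. The sums above show that other markers of the list were not at 0 there. Of 12 microglia markers tested, 11 were lower and none higher than in tumours in each culture. Between the cultures 3 were higher and none lower in 3D bioink (3 and 2 with quantile scaling), with Fcrls at 0 in 3D bioink. Summed endothelial markers ran from 6113 to 6450 in tumours, 4911 to 5267 in 2D culture and 5835 to 8114 in 3D bioink, with Erg at 0 in tumours and 2D culture. Pericyte and mural markers ran from 4479 to 4947, 1136 to 1159 and 2881 to 3083 in the same order, with Kcnj8 and Vtn at 0 in 2D culture. Both lists moved in both directions. Of 10 endothelial markers tested, 2 were higher and 3 lower in 3D bioink than in tumours, and 1 was higher and 5 lower in 2D culture. Of 9 pericyte and mural markers tested, 4 were higher and 3 lower in 3D bioink, and 2 were higher and 6 lower in 2D culture.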

How the data were processed

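RNA was sequenced from 3 tumour, 3 2D culture and 3 3D bioink libraries, made from 25 to 75 ng of RNA with a strand-specific kit, which used 14 cycles of PCR (per the labels' protocols). The authors deposited 1 table of normalized counts rounded to whole numbers, treated here as scores, since a rounded normalized value is no longer a raw count. Per the submitters' processing notes, kallisto, RSEM, DESeq, DESeq2 1.24.0 and the build mm10 were used, with no role or order given. Reads per library are not given there.

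From these values limma 3.58.1 (R 4.3.3) was run on log2(value + 1) with 1 fit over all 9 libraries, a variance trend and Benjamini-Hochberg adjustment over the 13773 of 20778 genes with a mean of at least 10. Each fold change is on that scale, which understates changes of low genes. Alternatives changed the pseudocount, filter, scaling (quantile, upper quartile, totals), trend, library weights and replicate block, and left out each library. The median log2 difference of all genes between 3D bioink and tumours moved from -0.11 to 0.04, 0.07 and 0.14 under the 3 scalings, and that between 3D bioink and 2D culture from -0.02 to -0.06, 0.14 and 0.17. On simulated data a log2 change of 1 was recovered for 55.5% of changed genes between 3D bioink and tumours, 60% between 2D culture and tumours and 55.5% between the cultures, and a change of 0.5 for 19.5%, 20% and 19%. Only 200 of the 13773 genes were changed in each simulation, a far smaller share than was called in the data. The changed genes were drawn from all levels tested, so these shares do not give the power for the members.

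Members and gene lists were chosen with earlier results of these data known, and the promoter motifs after the values were seen. All members were described. From each pathway or programme list, genes were named among the 2 with the largest called rise and fall in a comparison (where the higher group had a mean of 100 or more). Fut9 and genes named only from the cell type lists, such as Lyz2, Ms4a7, Aif1 and Aqp4, fell outside that rule. Klf6, Npm1, Has2, Tbx3, Nanog and Mki67 were added after their values were seen. Klf12 and Sox18, with means below 100 in every group, were also named outside the rule, to limit the counts that hold them. Gene positions and exon lengths came from GENCODE vM21 (GRCm38), and promoters from RefSeq (GRCm38.p6), which matched 7 members. Whether a replicate number pairs libraries was checked by the correlation of deviations from group means.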

Additional observations from a re-analysis of the deposited data

Results flagged for a closer look

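Klf4 and Sox2 were called in opposite directions against the same tumour libraries in the 2 cultures. They were picked by those calls, and the difference of the 2 effects is the difference between 3D bioink and 2D culture given above, so the values here are a description and add no evidence. It was log2 2.85 for Klf4, with all 3 libraries of 3D bioink above the tumours and all 3 of 2D culture below. For Sox2 it was log2 0.63, with the same order of libraries, and the call of Sox2 between 3D bioink and tumours was lost without tumour replicate 3 (log2 0.22, limma, adjusted p = 0.0531). Opposite calls were not particular to these 2 members. Klf2, Klf5, Klf6, Klf10 and Sox4 were among the genes also called higher in 3D bioink and lower in 2D culture. The share of such genes over the whole table was not counted.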

How the results depend on the processing

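The counts of members called stayed within 1.5 times under all 20 alternatives, at 6 to 8 between 3D bioink and tumours, 8 to 9 between 2D culture and tumours and 6 to 7 between the cultures. Over the whole table the counts called were 8079 to 9536, 6616 to 8035 and 7302 to 9766. Of single member values, 499 kept their direction and side of the threshold, 22 lost a call, 10 gained one and 6 changed sign, all 6 for Myc. Between 3D bioink and tumours Myc moved from log2 -0.23 to 0.0317 under quantile scaling and 0.0320 with equal totals. Between the cultures it was 0.0035 and ran from -0.0567 to 0.0751 when single libraries were left out, and quantile scaling gave 0.24 (adjusted p = 0.0294), which was called. The cause was not tested. Replicate numbers did not pair libraries: correlations of deviations between libraries with the same number ran from -0.03 to 0.08, and 9 of 18 best matches had the same number. With replicate as a block, 7, 8 and 7 members were called (Myc between 2D culture and tumours lost, log2 -0.23, adjusted p = 0.0541), and 8795, 7357 and 8039 genes over the table. A minimum mean of 50 left Fut4 untested. Without read counts per library, no counting error can be given for low values such as those of Fut4, Sox9 and Prom1.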

Other observations

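The genes nearest to Klf4 and Sox9 over the 9 libraries lay outside the lists above. Their distances were larger than those of the genes nearest to Sox2, Cd44, Myc, Bmi1, Msi1 and Nes. Slc2a1, the glucose transporter gene nearest to Klf4, had means of 5426 in tumours, 1597 in 2D culture and 11630 in 3D bioink. Axin2, a Wnt feedback gene and the second nearest to Klf4, had means of 638, 205 and 1161. Fbln1, an extracellular matrix gene nearest to Sox9, had means of 29, 119.3 and 454.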
